A study of Ginkgo biloba with 16 samples.

Results

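Wall genes of the *Ginkgo biloba* vascular cambium were followed across tree age, namely the xyloglucan endotransglucosylase/hydrolase genes *XTH16* (*Gb_22327*) and *XTH10* (*Gb_21649*), the *IRX1* pair *Gb_07428* and *Gb_07444*, and the *IRX3* pair *Gb_31853* and *Gb_29421*. They were taken by gene ID and are 6 of 43,911 gene entries, and all 6 passed the filter on low values that left 21,924 genes for testing. RNA was sequenced from 9 cambium samples of healthy female trees without treatment, 3 trees per age group and 1 library per tree. The trees were 15, 20 and 22 y old in VC20, 193, 211 and 236 y in VC200 and 538, 553 and 667 y in VC600, and the letters A, B and C name the trees of a group in this order. Cambial tissue was taken by cryosectioning from bark and wood specimens cut at breast height, so that neighboring phloem and xylem cells can be present, and a group stands for 3 individual trees. The study named these 6 genes among those that differed between VC20 and old trees in the same libraries. Their differences from VC20 are therefore a description of that choice and not independent evidence of a direction.

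XTH enzymes cut xyloglucan chains, which tether cellulose in the primary wall, and rejoin the ends, and in this way act on walls that are still expanding. *IRX1* and *IRX3* are Arabidopsis names (irregular xylem) for *CESA8* and *CESA7*, catalytic subunits of the cellulose synthase complex of the secondary wall. In Arabidopsis both act together in one complex in differentiating xylem vessels and fibers, and loss of either collapses the vessels. The deposited table carries IDs only, and the names come from database hits listed by the study. The best hit was *XTH2* of soybean for *Gb_22327*, *XTH10* of Arabidopsis for *Gb_21649*, *CESA4* of rice for both *IRX1* genes, *CESA9* of rice for *Gb_31853* and *CESA7* of Arabidopsis for *Gb_29421*. Rice *CESA4* and *CESA9* are themselves secondary wall subunits.

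*XTH16* *Gb_22327* lies on scaffold364 (plus strand, 2,271,122 to 2,272,270, length 930) and *XTH10* *Gb_21649* on scaffold34950 (plus strand, 33,503 to 34,902, length 891). The *IRX1* genes are neighbors on scaffold147. *Gb_07444* (minus strand, 7,116,903 to 7,121,503, length 3,117) and *Gb_07428* (plus strand, 7,404,304 to 7,408,882, length 3,027) are 283 kb apart, point away from each other and have 0 other genes of the table between them. *IRX3* gene *Gb_31853* (minus strand, 1,048,891 to 1,056,901, length 3,690) is on scaffold5957 and *Gb_29421* (plus strand, 609,947 to 613,362, length 2,283) on scaffold530. Positions are those of the deposited table, which refer to the published *G. biloba* genome assembly.

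Levels are in FPKM, fragments normalized to gene length and library size, and therefore compare between genes per length. The fragment total implied per library was 15,732,412 to 18,811,771, so depth was similar among trees. VC200C stood apart, with Spearman correlations over genes of 0.830 to 0.887 with the other 8 libraries. The VC200 vs VC20 fold changes of the members are given with and without it, as are some other results. A gene was called at a limma adjusted p under 0.05 (Benjamini-Hochberg over all tested genes) with a log2 fold change of FPKM + 1 of at least 1 in either direction. In bulk tissue, fewer cells of a type and less RNA per cell cannot be told apart.

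*XTH16* was lower in VC200 cambium. Its level in trees A, B and C was 54.2, 38.4 and 38.0 FPKM for VC20, 6.34, 9.68 and 3.51 FPKM for VC200, and 9.60, 14.8 and 41.2 FPKM for VC600. Every VC200 tree was below every VC20 tree, and the nearest trees of both groups were 3.93-fold apart. The VC600 trees split, since VC600C lay within the VC20 range while VC600A lay within the VC200 range. The mean was 6.51 ± 3.08 FPKM in VC200 and 43.5 ± 9.27 FPKM in VC20 (SD, n = 3 each), 85.0% lower in VC200. On the log2 scale of FPKM + 1 the difference was -2.63 (standard error 0.50, adjusted p by limma 0.0497). This was the 1 member called among the 6, and the call sat at the threshold. It was lost in 12 of 16 alternatives, including the omission of any 1 library other than VC600C, and the adjusted p ranged from 8.85e-05 to 0.167 over the 16. Leaving out VC200C gave -2.31 (adjusted p by limma 0.0675).

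*XTH10* had the highest level of the members in 5 of the 9 trees. The VC20 trees had 48.5, 84.6 and 75.3 FPKM of *Gb_21649*, the VC200 trees 19.0, 15.5 and 4.15 FPKM and the VC600 trees 48.4, 18.9 and 37.4 FPKM, in the order A, B, C as in all lists of trees that follow. All VC200 trees were below all VC20 trees by at least 2.55-fold. All VC600 trees were below VC20 as well, but VC600A at 48.4 FPKM and VC20A at 48.5 FPKM nearly met. VC200 differed from VC20 by a log2 fold of -2.52 (standard error 0.53, adjusted p by limma 0.0598) and VC600 by -1.03 (standard error 0.53, adjusted p by limma 0.769), and neither passed. Without VC200C the VC200 contrast gave -1.92 (adjusted p by limma 0.0581).

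The *IRX1* genes were close to absent in 1 VC200 tree. *Gb_07428* stood at 19.8, 23.1 and 7.86 FPKM in the VC20 trees, at 0.790, 2.07 and 0.0407 FPKM in the VC200 trees and at 10.1, 10.4 and 2.17 FPKM in the VC600 trees. *Gb_07444* followed closely, with 18.8, 21.0 and 6.51 FPKM for VC20, 0.699, 1.66 and 0.0198 FPKM for VC200 and 9.36, 10.6 and 0.995 FPKM for VC600. In both genes tree C was the lowest of its group at every age, and the sample labels give no link between trees of the same letter. The VC200C values rest on 2 fragments of *Gb_07428* and 1 of *Gb_07444*, with exact 95% Poisson intervals of 0.00493 to 0.147 FPKM and 0.000501 to 0.110 FPKM, which cover counting error only. In VC20A the same genes had 1,101 and 1,077 fragments.

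In VC200 the *IRX1* means were 94.3% (*Gb_07428*) and 94.9% (*Gb_07444*) below VC20, and without VC200C 91.5% and 92.4%. The log2 fold changes were -3.20 (standard error 0.62, adjusted p by limma 0.0519) for *Gb_07428* and -3.16 (standard error 0.72, adjusted p by limma 0.0717) for *Gb_07444*, so neither was called. Without VC200C they were -2.81 and -2.80 (adjusted p by limma 0.0715 and 0.106). Because 1 was added to each FPKM value, these folds understate the difference of values near 0. VC600 overlapped VC20 in both genes, since VC20C lay below VC600A and VC600B. The contrast of VC600 with VC20 gave -1.15 for *Gb_07428* and -1.26 for *Gb_07444* (adjusted p by limma 0.779 and 0.792). These sizes rested in part on VC600C, and without it they were -0.54 and -0.44.

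Of the *IRX3* pair, *Gb_31853* had the highest *IRX* level in VC20. The VC20 trees had 31.7, 30.7 and 8.77 FPKM of it, the VC200 trees 1.48, 3.09 and 0.0501 FPKM and the VC600 trees 10.6, 20.3 and 5.27 FPKM. The VC200C value rests on 3 fragments (exact 95% Poisson interval 0.0103 to 0.147 FPKM). Every VC200 tree was below every tree of VC20 and of VC600, and VC600 overlapped VC20. The VC200 mean was 93.5% below VC20, and 90.4% without VC200C. On the log2 scale VC200 lay -3.30 from VC20 (standard error 0.66, adjusted p by limma 0.0565) and VC600 lay -0.91 from it (standard error 0.66, adjusted p by limma 0.841), or -0.46 without VC600C. Without VC200C the difference of VC200 from VC20 was -2.76 (adjusted p by limma 0.0729).

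The other *IRX3* gene ran the opposite way. *Gb_29421* was at 2.05, 1.90 and 1.43 FPKM in trees of VC20, 4.10, 6.18 and 6.92 FPKM in trees of VC200 and 3.69, 6.96 and 3.73 FPKM in trees of VC600. All 6 old trees were above all VC20 trees, and the lowest of them, VC600A, was 1.80-fold above the highest VC20 tree. VC200C, which had the lowest level of the other 5 genes, had the highest of *Gb_29421* in its group, on 256 fragments. VC200 exceeded VC20 by 1.25 on the log2 scale (standard error 0.27, adjusted p by limma 0.0661), or by 1.12 without VC200C (adjusted p by limma 0.0950). VC600 exceeded VC20 by 1.01 (standard error 0.27, adjusted p by limma 0.466). This gene was the lowest of the 6 in all VC20 trees and the highest in VC200C.

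**Figure D1:**
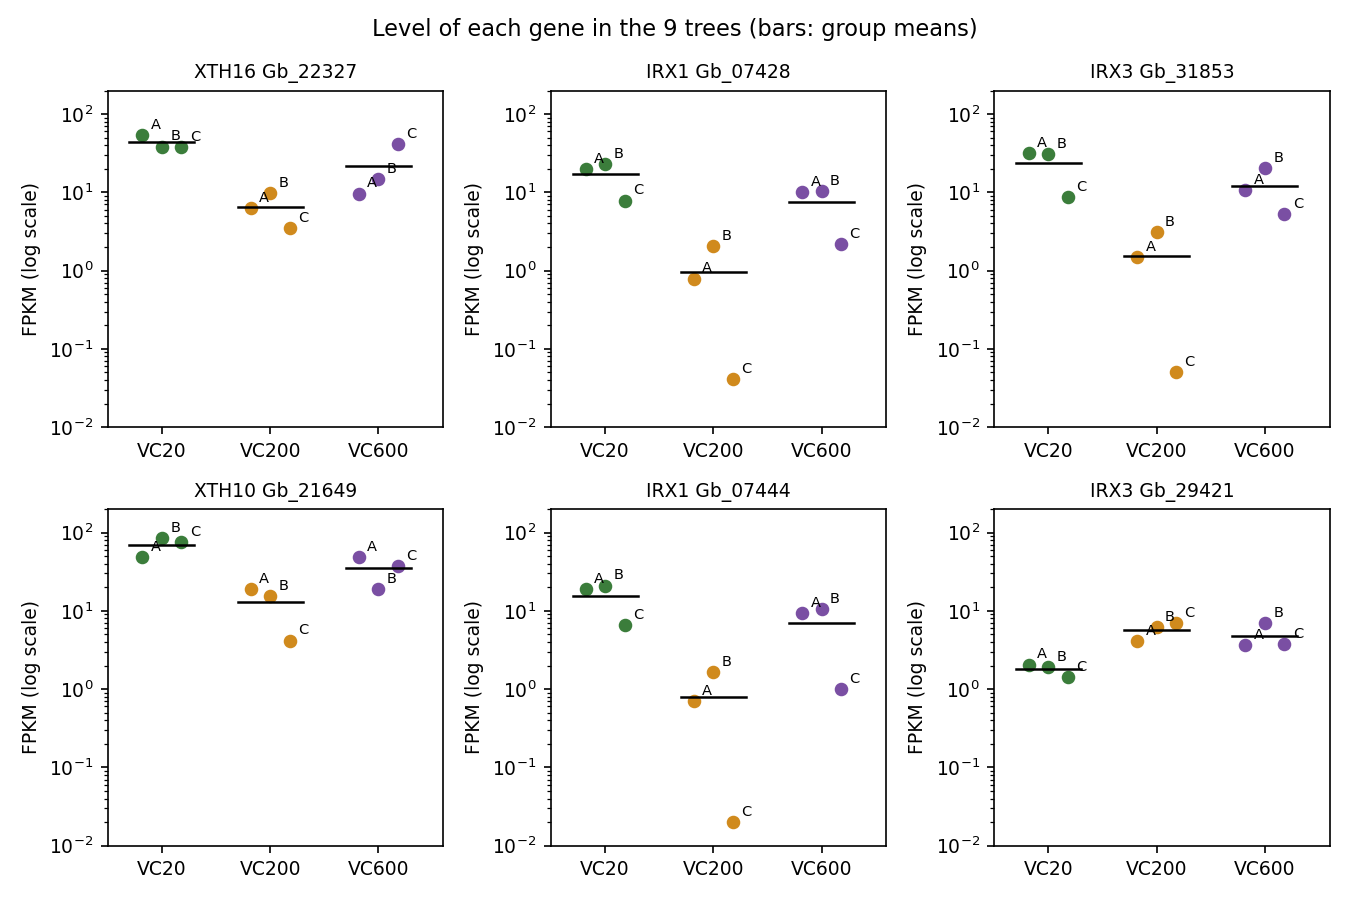
FPKM on a log axis in the 3 trees of VC20, VC200 and VC600 for each of the 6 genes; letters name trees and bars are arithmetic group means. The *IRX1* genes and *Gb_31853* are at 0.0198 to 0.0501 FPKM in VC200C, and *Gb_29421* is at 3.69 FPKM or more in every old tree, against 2.05 FPKM or less in VC20.

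Over the 6 genes, VC200 vs VC20 had 5 members with every tree below and 1 with every tree above, and 0 overlapped. Among all tested genes, 21.1% had every VC200 tree below every VC20 tree and 7.43% had every tree above. By limma, 1 member was called lower and 0 higher, against 0.707% of tested genes called lower and 0.283% called higher. All 6 had an unadjusted p under 0.05, as did 20.1% of tested genes. By edgeR on recovered fragments 0 members were called, with 55 calls over all genes. The median log2 fold change was -2.90 over the members and -0.12 over all tested genes. DESeq2 on recovered fragments, the tool named for the gene tests of the study, called all 6, and it called 3.55% of the 31,618 genes it tested. For DESeq2 the genes tested are all those with any recovered fragment, whether or not it gave them an adjusted p. Its shares thus have a wider base than those of limma. These shares are set beside each other as a description, because the genes were chosen on this contrast.

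VC600 vs VC20 gave smaller differences. By limma 0 members were called, against 0.00456% of tested genes called lower and 0.00456% higher. The unadjusted p was under 0.05 in 2 members (6.78% of tested genes), namely *Gb_22327* at -1.19 on the log2 scale and *Gb_29421* at 1.01. By edgeR 0 members were called, and 0 over all genes. By DESeq2 1 was called, *Gb_29421*, at 1.44 on the log2 scale (DESeq2 adjusted p = 0.0258), and DESeq2 called 0.528% of the genes it tested. *XTH10* had every VC600 tree below VC20, as had 8.82% of tested genes, *Gb_29421* every tree above, as had 7.28%, and the other 4 members overlapped. The median log2 fold change was -1.09 over the members and -0.015 over all tested genes.

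VC600 was higher than VC200 in 5 members on average. The means were 21.9 ± 16.9 FPKM in VC600 and 6.51 ± 3.08 FPKM in VC200 for *XTH16*, and 34.9 ± 14.9 FPKM in VC600 and 12.9 ± 7.77 FPKM in VC200 for *XTH10*. For the *IRX* genes the VC600 mean was 7.82-fold (*Gb_07428*), 8.80-fold (*Gb_07444*) and 7.81-fold (*Gb_31853*) the VC200 mean, and for *Gb_29421* 0.836-fold. *Gb_31853* and *Gb_07428* had every VC600 tree above every VC200 tree, as had 11.1% of tested genes, and in *Gb_07428* the nearest trees were 1.04-fold apart. The other 4 members overlapped between VC600 and VC200, *Gb_07444* among them.

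None of these differences between the old groups passed. By limma 0 members were called, against 0.00456% of tested genes called higher, and edgeR and DESeq2 also called 0. Over all genes edgeR called 1 and DESeq2 342 of the 31,618 it tested, so calls were rare in general. The unadjusted p was under 0.05 in 5 members, as in 10.2% of tested genes. Over the members the median log2 fold change was 1.70, against 0.11 over all tested genes. The log2 fold change was 2.39 for *Gb_31853* (standard error 0.66, adjusted p by limma 0.317) and 2.05 for *Gb_07428* (standard error 0.62, adjusted p by limma 0.329), and 1.86 and 1.65 without VC200C. Without VC600C they were 2.83 and 2.66. VC200 is a group of the comparison with VC20 too, so these differences share its 3 trees.

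**Figure D2:**
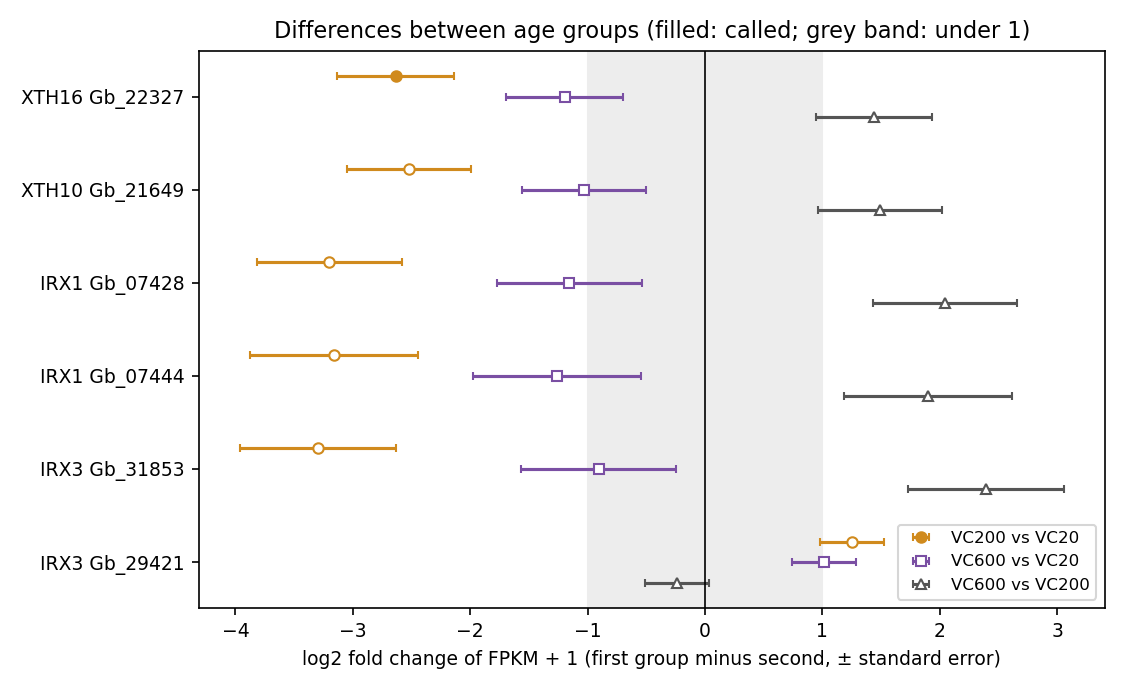
Log2 fold change of FPKM + 1 with its limma standard error for the 6 genes in VC200 vs VC20 (circles), VC600 vs VC20 (squares) and VC600 vs VC200 (triangles); filled symbols are called. *Gb_22327* in VC200 vs VC20, at -2.63, is the 1 filled symbol, and *Gb_29421* lies on the other side of 0 from the other 5 genes in each comparison.

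The *IRX1* genes and *Gb_31853* shared 1 profile over the trees. Pearson's r of log2(FPKM + 1) over the 9 libraries was 0.99 between *Gb_07428* and *Gb_07444*, each the most similar of 21,923 other tested genes to its partner. It was 0.98 between *Gb_31853* and *Gb_07428* and 0.96 between *Gb_31853* and *Gb_07444*, and 0.97 and 0.95 without VC200C. These values share the libraries and the same split between groups, and they are given as a description. *Gb_29421* had an r of -0.56 with *Gb_31853*, -0.57 with *Gb_07444* and -0.61 with *Gb_07428*, and without VC200C these were weaker, at -0.40, -0.44 and -0.49. Its lowest r within the 6 genes was -0.87, with *XTH10*, and -0.91 without VC200C.

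Both *IRX1* genes were also close in level. The ratio of *Gb_07428* to *Gb_07444* FPKM was 1.05, 1.10 and 1.21 in the VC20 trees, 1.13, 1.25 and 2.06 in the VC200 trees and 1.08, 0.986 and 2.18 in the VC600 trees. In VC600C the ratio rested on 110 and 52 fragments and its exact 95% counting interval, 1.55 to 3.09, lay above the intervals of all VC20 trees and of VC600A and VC600B, whose highest bound was 1.40. It overlapped those of VC200A and VC200B, and the interval in VC200C was 0.107 to 122. Over trees the mean log2 ratio was 0.16 ± 0.10 in VC20, 0.51 ± 0.46 in VC200 and 0.41 ± 0.62 in VC600 (SD, n = 3 each). Against VC20 the two-sided exact permutation p was 0.2 for VC200 and 0.9 for VC600 (adjusted over 6 ratio tests, 1 in each case), where 3 trees against 3 cannot go below 0.1. The sources used here do not say how reads that match both genes were counted, so fragments of one may have been assigned to the other, and the similarity of the pair is uncertain to that extent.

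The makeup of the *IRX3* pair differed among the age groups. The shared name rests on database hits only. *Gb_29421* has a length of 2,283, against 3,027 to 3,690 in the other *IRX* genes, and whether it acts as an *IRX3* gene was not tested. *Gb_29421* made up 6.08, 5.83 and 14.0% of the summed *IRX3* FPKM in the VC20 trees, 73.4, 66.7 and 99.3% in the VC200 trees and 25.9, 25.6 and 41.5% in the VC600 trees. The groups did not overlap in this share, and no test is given because the study listed both genes, on these libraries, with opposite directions. The mean was 8.65 ± 4.66% in VC20, 79.8 ± 17.2% in VC200 and 31.0 ± 9.11% in VC600 (SD, n = 3 each). Without VC200C the VC200 mean was 70.1%. The 4 *IRX* genes together summed to 72.3, 76.8 and 24.6 FPKM in the VC20 trees, 7.07, 12.997 and 7.03 FPKM in the VC200 trees and 33.8, 48.2 and 12.2 FPKM in the VC600 trees. The VC200 trees VC200A and VC200C were alike in this sum, but *Gb_29421* was 58.0% of it in VC200A and 98.4% in VC200C.

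**Figure D3:**
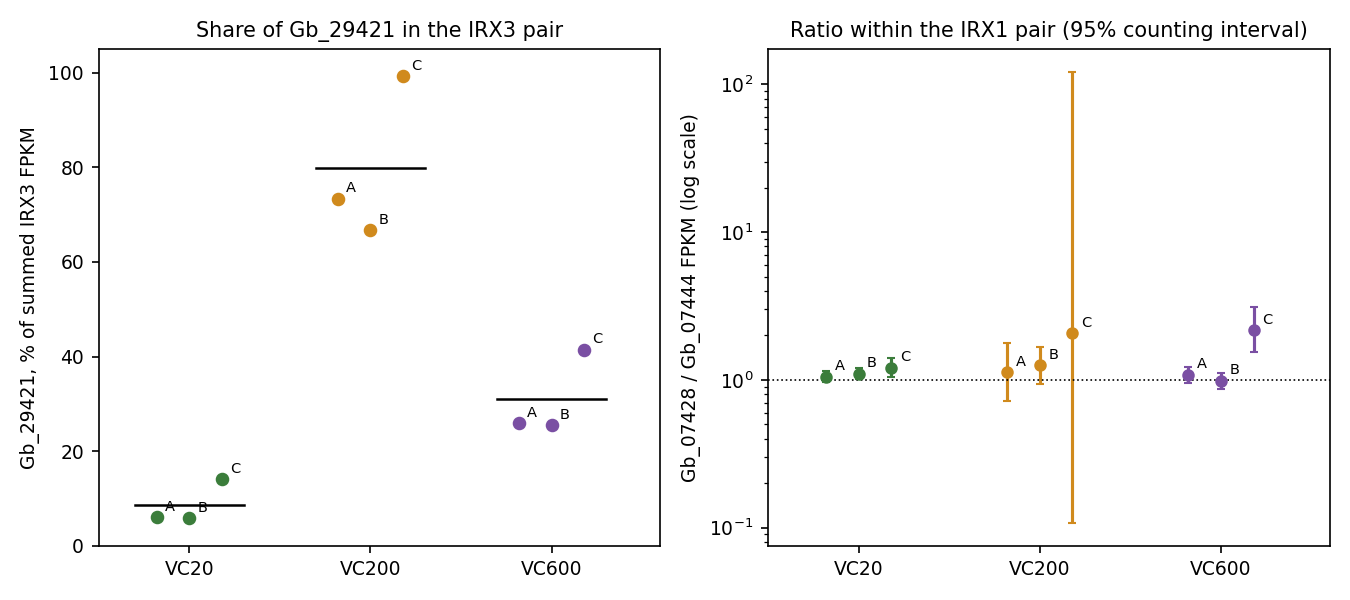
Left, percent of the summed *IRX3* FPKM that belonged to *Gb_29421* in each tree, with group means as bars; right, ratio of *Gb_07428* to *Gb_07444* FPKM on a log axis with exact 95% counting intervals. The share is 5.83 to 14.0% in VC20, 66.7 to 99.3% in VC200 and 25.6 to 41.5% in VC600, and the ratio is 2.18 in VC600C with an interval of 1.55 to 3.09, above the 1.40 reached by the intervals of VC20.

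The XTH genes kept no fixed proportion. The ratio of *XTH16* to *XTH10* FPKM was 1.12, 0.454 and 0.505 in the VC20 trees, 0.333, 0.626 and 0.846 in the VC200 trees and 0.198, 0.785 and 1.10 in the VC600 trees. The range within each age group was wide and the groups overlapped. The log2 ratio averaged -0.65 ± 0.71 in VC20, -0.83 ± 0.69 in VC200 and -0.85 ± 1.31 in VC600 (SD, n = 3 each), with a two-sided exact permutation p of 0.8 for each old group against VC20. In VC600C both XTH genes were high, at 41.2 and 37.4 FPKM, while the *IRX1* genes and *Gb_31853* had their lowest VC600 values there. In VC600A *XTH10* was at 48.4 FPKM and *XTH16* at 9.60 FPKM.

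The 3 tested genes with the highest r over the 9 libraries were listed for each member as a description. For *XTH16* and *XTH10* these 3 held no gene of the wall lists. The closest were *Gb_40588* (r = 0.98) to *XTH16* and *Gb_24959* (r = 0.98) to *XTH10*. A high r did not mean a like range, since *Gb_24959* spanned only 6.07 to 8.20 FPKM over the trees and *XTH10* 4.15 to 84.6 FPKM. *Gb_31853* was closest to *Gb_17419* (r = 0.99), a further gene whose best hit is rice *CESA9*. The others of its 3 were *Gb_38135* (r = 0.99), at 12.4 to 24.1 FPKM over the trees, and *Novel01787* (r = 0.99), annotated as a laccase. *Gb_17419* was at 26.1, 29.5 and 8.51 FPKM in the VC20 trees, 1.19, 3.04 and 0.0590 FPKM in the VC200 trees and 13.4, 18.3 and 4.16 FPKM in the VC600 trees. It differed by -3.24 on the log2 scale between VC200 and VC20 (adjusted p by limma 0.0583) and followed *Gb_07428* (r = 0.99) after *Gb_07444* and *Novel01686*, annotated as a methylesterase. *Gb_29421* was closest to *Gb_03585* (r = 0.97), and *Gb_00256*, annotated as a nuclear factor Y subunit, came next (r = 0.96).

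Markers of neighboring cell types were set beside these genes. The study listed 4 of the 5 xylem genes and all 3 phloem genes as differing in these libraries, so their separation is not independent evidence. The 5 xylem genes (the laccases *LAC17*, *LAC11* and *LAC4*, which polymerize lignin, and *NAC073*, a xylem transcription factor) summed to 17.7 to 38.5 FPKM in VC20, 3.29 to 6.10 FPKM in VC200 and 14.9 to 28.5 FPKM in VC600. In 4 of the 5 every VC200 tree was below VC20, and *LAC17* *Gb_00462* and *LAC4* *Gb_14614* were listed at 0 in all VC200 trees. Both *WOX4* genes, which maintain the cambium, summed to 20.2 to 41.7 FPKM in VC20, 0.450 to 19.5 FPKM in VC200 and 8.97 to 29.7 FPKM in VC600, with *Gb_12565* listed at 0 in VC200C. The 3 phloem genes (*APL*, *NAC045* and *NAC086*, regulators of sieve element formation) summed to 25.6 to 35.7 FPKM in VC20, 72.1 to 101 FPKM in VC200 and 30.8 to 52.9 FPKM in VC600, and every VC200 tree was above VC20 in all 3. Among all tested genes, 21.1% had every VC200 tree below VC20 and 7.43% had every tree above. By limma 0 of the 8 tested markers were called in VC200 vs VC20. An unadjusted p under 0.05 was found in 7 of them, as in 20.1% of tested genes. By edgeR 0 of the 9 markers it tested were called, with 55 calls over all genes. DESeq2 tested 10 and called 3 xylem genes lower and 3 phloem genes higher, against 3.55% called of all genes it tested. VC200C had the lowest xylem and cambium sums and the highest phloem sum. The part of tissue composition in the differences of the XTH and *IRX* genes was not tested.

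**Figure D4:**
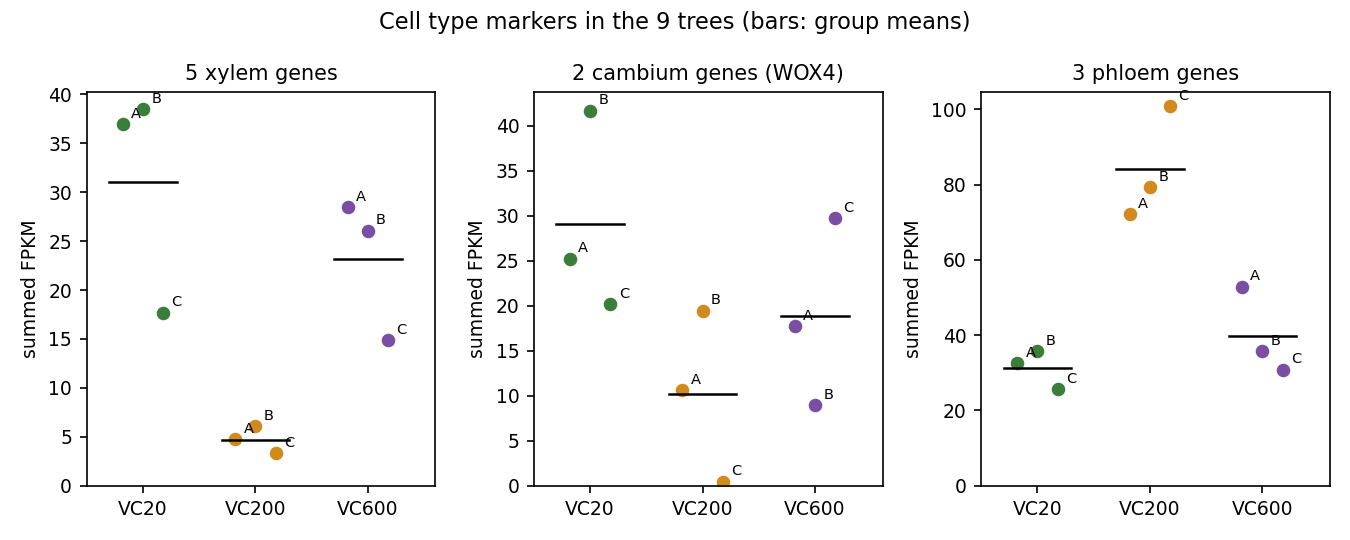
Summed FPKM of 5 xylem, 2 cambium and 3 phloem marker genes in each tree, with group means as bars. The xylem sum is at most 6.10 FPKM in VC200 and at least 14.9 FPKM in the other groups, and the phloem sum is at least 72.1 FPKM in VC200 and at most 52.9 FPKM elsewhere.

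The other wall genes give the setting. Of 36 genes in 6 lists (other XTH, other cellulose synthase, cellulose synthase-like and accessory, xylan and xyloglucan synthesis, expansin, endo-mannanase), 24 were tested, and in VC200 vs VC20 limma called 3 lower and 0 higher. Among all tested genes, limma called 0.707% lower and 0.283% higher. Of the 26 list genes that edgeR tested, 1 was called lower, *Gb_21966*, with 55 calls over all genes. Of the 32 that DESeq2 tested, 17 were called lower and 1 higher, against 3.55% called of all genes it tested. The lists differ in origin. The 22 genes that the study's table of differing genes annotates were chosen on these libraries, and all 19 tested ones had a negative log2 fold change (median -1.87). The 14 genes known only from the table of predicted miRNA targets are absent from that table of differing genes. They were thus sorted on these libraries as well, and the contrast between the sets follows from that sort. Of the 5 tested ones among the 14, 2 were negative and 3 positive (median 0.33), against a median of -0.12 over all tested genes. In VC600 vs VC20 and in VC600 vs VC200, limma called 0 of the 24, with 4 and 12 at an unadjusted p under 0.05. Among all tested genes 6.78% and 10.2% had such a p. By edgeR 0 were called in both, and by DESeq2 1 and 5, where DESeq2 called 167 and 342 over all genes.

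Of the 3 relatives described here none was called by limma, and DESeq2 called all 3 in VC200 vs VC20. *Gb_22329* and *Gb_22345*, both named *XTH9*, sit on the scaffold of *XTH16*. *Gb_22345* reached 2.56, 6.71 and 22.3 FPKM in the VC20 trees, 0.672, 0.128 and 0.284 FPKM in the VC200 trees and 0.261, 0.365 and 0.617 FPKM in the VC600 trees, so that every old tree was below every VC20 tree. On the log2 scale VC200 lay -2.68 from VC20 (adjusted p by limma 0.0608) and VC600 lay -2.62 from it (adjusted p by limma 0.291). DESeq2 called *Gb_22345* in VC600 vs VC20 as well, where it called 0.528% of the genes it tested. *Gb_22329* was at 27.5 FPKM in VC600C and at 4.58 and 6.50 FPKM in the other VC600 trees, and so was highest in the VC600 tree in which *XTH16* was highest. In the VC20 trees it was at 9.88, 19.9 and 27.9 FPKM, the reverse of the order of *XTH16*, at 54.2, 38.4 and 38.0 FPKM. *Gb_32651*, with rice *CESA8*, a primary wall subunit, as its best hit, averaged 13.7 ± 7.42 FPKM in VC200 and 38.1 ± 8.08 FPKM in VC20 (SD, n = 3 each), a log2 difference of -1.57 (adjusted p by limma 0.107).

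Genes for other wall polymers held the 3 calls. *CSLA9* gene *Gb_21966*, a glucomannan synthase, fell to 19.8 ± 5.92 FPKM in VC200, against 59.4 ± 12.7 FPKM in VC20 (SD, n = 3 each), a difference of -1.56 on the log2 scale (adjusted p by limma 0.0370). *GXM2* gene *Gb_12266*, a xylan methyltransferase, was called with -1.56 (adjusted p by limma 0.0475), and *MAN6* gene *Gb_30579*, an endo-mannanase, with -3.55 (adjusted p by limma 0.0305). With any 1 of the VC20 libraries, VC200A or VC200B left out none of the 3 was called, and over the 9 omissions *Gb_30579* was called in 4, *Gb_21966* in 2 and *Gb_12266* in 0. The highest xylan gene, *IRX10L* *Gb_23278*, was not called (log2 fold change -1.32, adjusted p by limma 0.0565), and neither was the second *CSLA9* gene *Gb_28041* (-1.64, adjusted p by limma 0.0849). The expansin with the highest level, *EXPA13* *Gb_16005*, averaged 134 ± 42.7 FPKM in VC200 and 133 ± 12.2 FPKM in VC20 (SD, n = 3 each), with a log2 difference of -0.044 (adjusted p by limma 0.941), and *EXLA1* *Gb_10705* had -2.73 (adjusted p by limma 0.113). The highest endo-mannanase, *MAN6* gene *Gb_04336*, had a log2 fold change of 0.80 (adjusted p by limma 0.369).

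**Figure D5:**
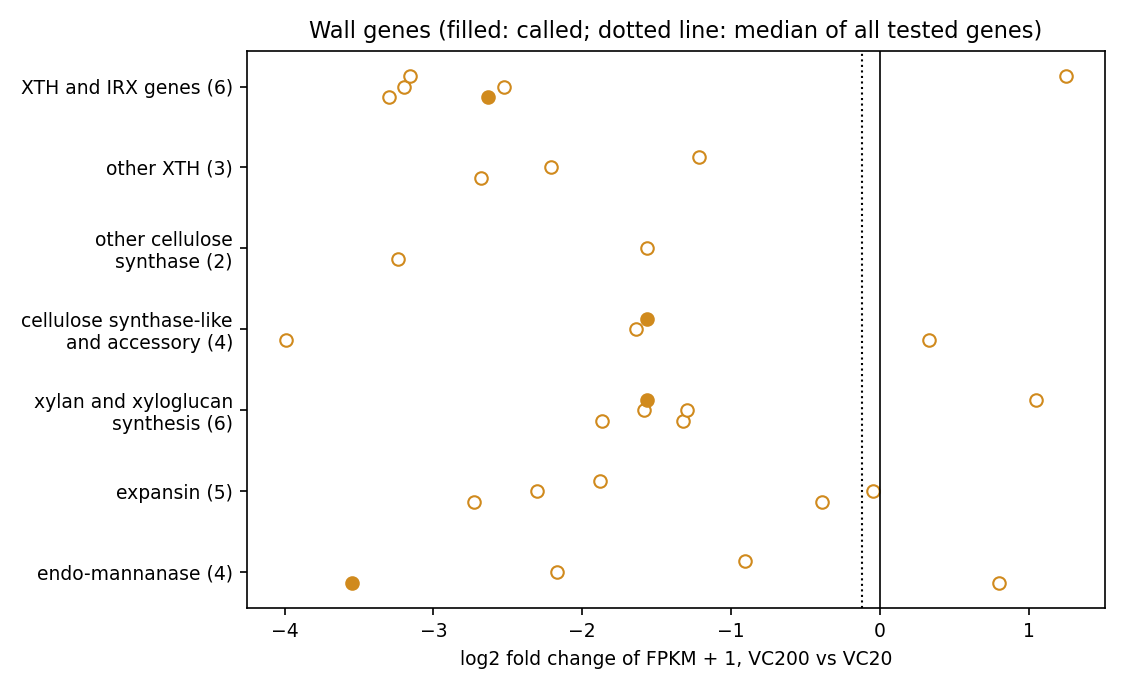
Log2 fold change of FPKM + 1 in VC200 vs VC20 for the 6 XTH and *IRX* genes and the 24 tested genes of 6 wall lists; filled symbols are called and the dotted line is the median of all tested genes, -0.12. Filled are *Gb_22327* at -2.63, *Gb_21966* and *Gb_12266* at -1.56 and *Gb_30579* at -3.55.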

How the data were processed

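RNA-seq covered 9 cambium libraries, 3 trees in each of VC20, VC200 and VC600. The authors aligned reads to the *G. biloba* genome (HISAT in the paper; TopHat2 2.0.12 and Cufflinks 2.1.1 are also named in the submitters' processing notes) and deposited FPKM values per gene. The sources used here do not name the counting tool. The deposited miRNA read counts and predicted targets served to look up the members only. Groups came from the sample labels, and each tree is 1 replicate.

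A gene was tested if 3 or more libraries reached 1 FPKM. The test was that of limma 3.58.1 (R 4.3.3), with a mean-dependent prior, on log2 values of FPKM with a pseudocount of 1, in 1 fit of 9 libraries, with Benjamini-Hochberg adjustment over 21,924 genes. FPKM times gene length gave whole fragments for 97.4% of values above 0 (tolerance 0.02), and fragments were recovered for 43,152 genes and used with edgeR 4.0.16 (quasi-likelihood) and DESeq2 1.42.0 as alternatives. Of the gene lengths, 83.4% are multiples of 3, so most are coding lengths. Ratios were compared by exact permutation (scipy 1.17.1). Other alternatives were a pseudocount of 0.1, no filter, quantile normalization, a fit of 2 groups, a replicate block and each library left out. The exact interval of the *IRX1* ratio was added after values were seen. Procedures were tested on simulated data.

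Members and lists were chosen with earlier results of these data known. Named wall genes are those called in a list and the 2 of highest mean FPKM. For each member, some of the 3 genes of highest Pearson's r are named. Further genes of the lists that are named were chosen after their values were seen. Positions and IDs are as deposited, and no sequence was used here.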

Additional observations from a re-analysis of the deposited data

How the results depend on the processing

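All 288 fold changes of the 6 genes under the alternatives kept their sign, and calls depended on the setting. In VC200 vs VC20 the number of members called was 1, and it was 0 with a pseudocount of 0.1, no filter or edgeR, 6 with DESeq2, and 0 to 3 with 1 library left out (3 without VC600C, *Gb_22327*, *Gb_07428* and *Gb_07444*). In VC600 vs VC20 it was 0, and 1 with DESeq2. Over all genes, VC200 vs VC20 had 217 calls, and 75 with no filter, 104 with only the 2 groups, 55 with edgeR, 1,122 with DESeq2 and 0 to 224 with 1 library left out. VC600 vs VC20 had 2, and 4 with only the 2 groups, 0 with edgeR, 167 with DESeq2 and 0 to 21 with 1 left out. VC600 vs VC200 had 1, and 5 with a pseudocount of 0.1, 2 with no filter, 4 with only the 2 groups, 342 with DESeq2 and 0 to 16 with 1 left out.

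The sample labels give no pairing of trees by letter. Same-letter deviations correlated at -0.24 to 0.28 over 9 pairs, and different-letter deviations at -0.30 to 0.27. Whether trees of the same letter shared handling was not tested. With the letter as a replicate block, 3 members (*Gb_07428*, *Gb_07444* and *Gb_31853*, adjusted p of 0.0214, 0.0276 and 0.0201) and 58 genes were called in VC200 vs VC20, *Gb_22327* was not (adjusted p = 0.104), and 0 genes were called in VC600 vs VC20 and in VC600 vs VC200.

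The log2 ratio of the *IRX1* pair differed by 0.35 in VC200 vs VC20, and by -0.042 with a pseudocount of 1. In VC600 vs VC20 the difference was 0.24, and -0.11 (without VC600C) to 0.46 with 1 tree left out. In VC600 vs VC200 it was -0.11, and 0.15 with a pseudocount of 1, 0.037 without VC600A, 0.11 without VC600B, 0.16 without VC200C and -0.47 without VC600C. For the XTH ratio, VC200 vs VC20 differed by -0.18, and by 0.20 without VC200A, 0.23 without VC20A and -0.48 without VC200C. VC600 vs VC20 differed by -0.19, and by 0.55 without VC600A, 0.21 without VC20A and -0.69 without VC600C. VC600 vs VC200 differed by -0.015, and by 0.73 without VC600A, 0.064 without VC200B, 0.28 without VC200C and -0.51 without VC600C. The *IRX3* share kept its order of groups on fragments. The causes were not tested.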

Other observations

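None of the 6 XTH and *IRX* genes was among the 3,078 genes with a predicted miRNA. Of the other XTH and cellulose synthase genes in the lists, *XTH5* *Gb_07550* and *CESA5* *Gb_05001* were, and both were too low to be tested by limma. *Gb_07550* had 0.428 FPKM in VC200C and 0.0739 FPKM or less in the other trees. The miRNA predicted for *Gb_07550* with the most reads, novel_408, had 34 and 35 reads in VC20A and VC20B, 46 and 61 reads in VC200A and VC200B and 160 and 59 reads in VC600A and VC600B. These read counts are not adjusted for the depth of each library, so they do not compare levels between trees.

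Besides *Gb_17419*, a further gene with rice *CESA9* as its best hit, *Gb_09688*, had the opposite order to *Gb_31853* at low level. It had 0.469, 0.113 and 1.97 FPKM in VC200, against 0.0739, 0.0388 and 0 FPKM in VC20. *Gb_09688* was too low to be tested by limma, and DESeq2 called it in VC200 vs VC20. *Gb_31675*, with *CESA7* as its best hit, had 0.0476, 0.0995 and 0 FPKM in VC200, against 0.683, 0.333 and 0.580 FPKM in VC20. *CTL1* *Gb_10203*, a chitinase-like protein that Arabidopsis needs for normal cellulose, had 4.05, 16.3 and 0.198 FPKM in VC200, against 82.5, 79.7 and 61.0 FPKM in VC20, a log2 fold change of -3.99 (limma adjusted p = 0.0573).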
